A study of Homo sapiens with 4 samples.

Results

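The replication-dependent histone genes supply the proteins that package newly made DNA. Their rows were taken from the deposited table by symbol (HIST1H, HIST2H, HIST3H or HIST4H) where the mean over the 12 libraries was at least 0.5 TPM. TPM, transcripts per 1000000, is a level per length of transcript, and every library adds up to that total. The rule gave 39 genes of the 43622 rows. Of 71 rows with such a symbol, 1 is a pseudogene, 31 fell under the threshold and 11 of those were listed at 0 in every library. The 39 genes comprised 2 of 6 genes for the linker histone H1, 11 of 17 for H2A, 14 of 18 for H2B, 5 of 14 for H3 and 7 of 15 for H4. By location 29 lay in the large HIST1 group on chromosome 6, 7 in HIST2 and 2 in HIST3 on chromosome 1, and HIST4H4 on chromosome 12. The genes were selected on their mean level over the 12 libraries, so their presence above 0.5 TPM is no result. Just inside the threshold lay HIST1H1D at 0.511 TPM and just outside it HIST2H3A at 0.446 TPM.

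DNA is wound around the core histones H2A, H2B, H3 and H4 in the nucleosome, and H1 binds the linker between nucleosomes. Cells transcribe the clustered histone genes mainly in S phase, under the coactivator NPAT, a target of cyclin E and CDK2. The typical mRNAs of these genes carry no introns and end in a stem-loop bound by SLBP in place of a poly(A) tail. These mRNAs decay when DNA synthesis stops. Some of the genes also have annotated ends well past the stem-loop, as described below. MLN4924 (pevonedistat) inhibits the NEDD8-activating enzyme and thereby the cullin-RING ubiquitin ligases, whose loss is known to cause re-replication of DNA.

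RNA was sequenced from PC3 cells, a line of human prostate carcinoma cells, in 4 conditions of 3 libraries each, deposited as 1 sample per condition with 3 columns. PC3 cells received DMSO (Ctrl) or 1 µM MLN4924 (MLN) for 3 days. PC3 cells that stably carried a retroviral short hairpin RNA (shRNA) against p14ARF, selected with hygromycin, received DMSO (shARF) or 1 µM MLN4924 (Both) for the same time. The design text of the record gives the dose as 1 mM and speaks of a knockout, while the sample labels and the methods give 1 µM and the methods an shRNA. The sources used here name no control shRNA in Ctrl and MLN, so loss of p14ARF, transduction and hygromycin selection cannot be told apart. Changes with the shRNA named below are differences between these cells. The sources also do not say whether the libraries of a condition came from separate cultures. The p-values thus measure the spread between these libraries only. Whether poly(A) RNA was selected, which bears on mRNAs without a poly(A) tail, is not given, nor whether reads were counted by strand.

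CDKN2A, which encodes p14ARF and is targeted by the shRNA, was at 190.1, 183 and 177 TPM in the Ctrl libraries and 58.2, 58.7 and 60.9 in shARF, and with the drug at 100.4, 133 and 119 in MLN and 47.2, 41.2 and 54.01 in Both. It was lower in shARF than in Ctrl (log2 difference −1.63, SE 0.0353, adjusted p = 2.24e-05, limma), with no overlap between the conditions. The value is for the gene as a whole and does not measure p14ARF transcripts apart from any others of CDKN2A. The epithelial genes KRT8, KRT18, KRT19, EPCAM and CDH1 had condition means from 7.52 TPM (CDH1 in Both) to 562 TPM (KRT19 in Ctrl). KLK3 was listed at 0 in every library. Of markers of other cells, PTPRC did not exceed 0.285 TPM, COL1A1 lay between 4.04 and 18.2 TPM, and PECAM1 was at 11.7 TPM in Ctrl, 1.91 in shARF, 0.579 in MLN and 0.173 in Both. KRT18, KRT19, EPCAM, CDH1 and PECAM1 were lower in MLN vs Ctrl and in Both vs shARF, KRT8 in Both vs shARF, and PTPRC and COL1A1 were higher in both, and their part in the results on histone genes was not tested.

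The sequence that defines these mRNAs was read downstream of each stop codon on GRCh38. Shown are the stem-loops of 5 genes with different letters, which show where the forms differ, with 5 bases on either side, the stem and loop in capitals, written as DNA on the strand of the gene. The coordinates are those of the capitals.
HIST1H2BK, chr6:27146366-27146381, minus strand: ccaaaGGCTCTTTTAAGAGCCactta
HIST3H2A, chr1:228457369-228457384, minus strand: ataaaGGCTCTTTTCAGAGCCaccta
HIST2H2AC, chr1:149887391-149887406, plus strand: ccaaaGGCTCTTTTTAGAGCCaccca
HIST2H4A, chr1:149833032-149833047, plus strand: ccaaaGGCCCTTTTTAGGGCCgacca
HIST1H3E, chr6:26225596-26225611, plus strand: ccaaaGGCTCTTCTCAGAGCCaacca
The consensus searched has 16 positions on the strand of the gene, of which the letters of GG, CTTTT, AG and CC are fixed in that order and the 5 others are free, and it was present within 100 bases after the stop codon in 38 of the 39 genes. HIST1H3E differed from it by T8C, counted from 1 at the 5′ end of the 16 positions. The same consensus followed the stop codon of 69 of 19924 coding genes of the annotation (0.346%), and 67 of these were among the 70 histone rows. The form of HIST3H2A was the most frequent, in 23 genes of H1, H2A, H2B and H3, and that of HIST1H2BK occurred in 5 genes, which were all of H2B. Of the 7 H4 genes 3 had the form of HIST2H4A and 4 a form that differs from it at a single free position. HIST1H2AG, HIST1H2AK and HIST2H2AC, all of H2A, had a form of their own each. These are matches of letters and no measure of processing.

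The levels spread over more than 2 orders of magnitude. HIST1H2BK, which encodes an H2B, was highest, averaging 221 TPM across the 12 libraries. It was followed by HIST2H2AA4 (146 TPM), HIST1H2AC (121 TPM) and HIST3H2A (102 TPM), which encode H2A, and by the linker histone gene HIST1H1C (67.7 TPM). HIST2H2BE (47.3 TPM), HIST1H4H (34.3 TPM) and HIST1H2BD (33.7 TPM) completed the 8 highest. The 5 leading genes held 71.7% of the summed level of the 39 genes in Ctrl and 67.8% in MLN, against 72.8% in shARF and 65.9% in Both. The mean was at least 10 TPM in 13 genes and at least 1 TPM in 31. H2A and H2B together made up 79.0% of the sum in Ctrl.

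**Figure D1:**
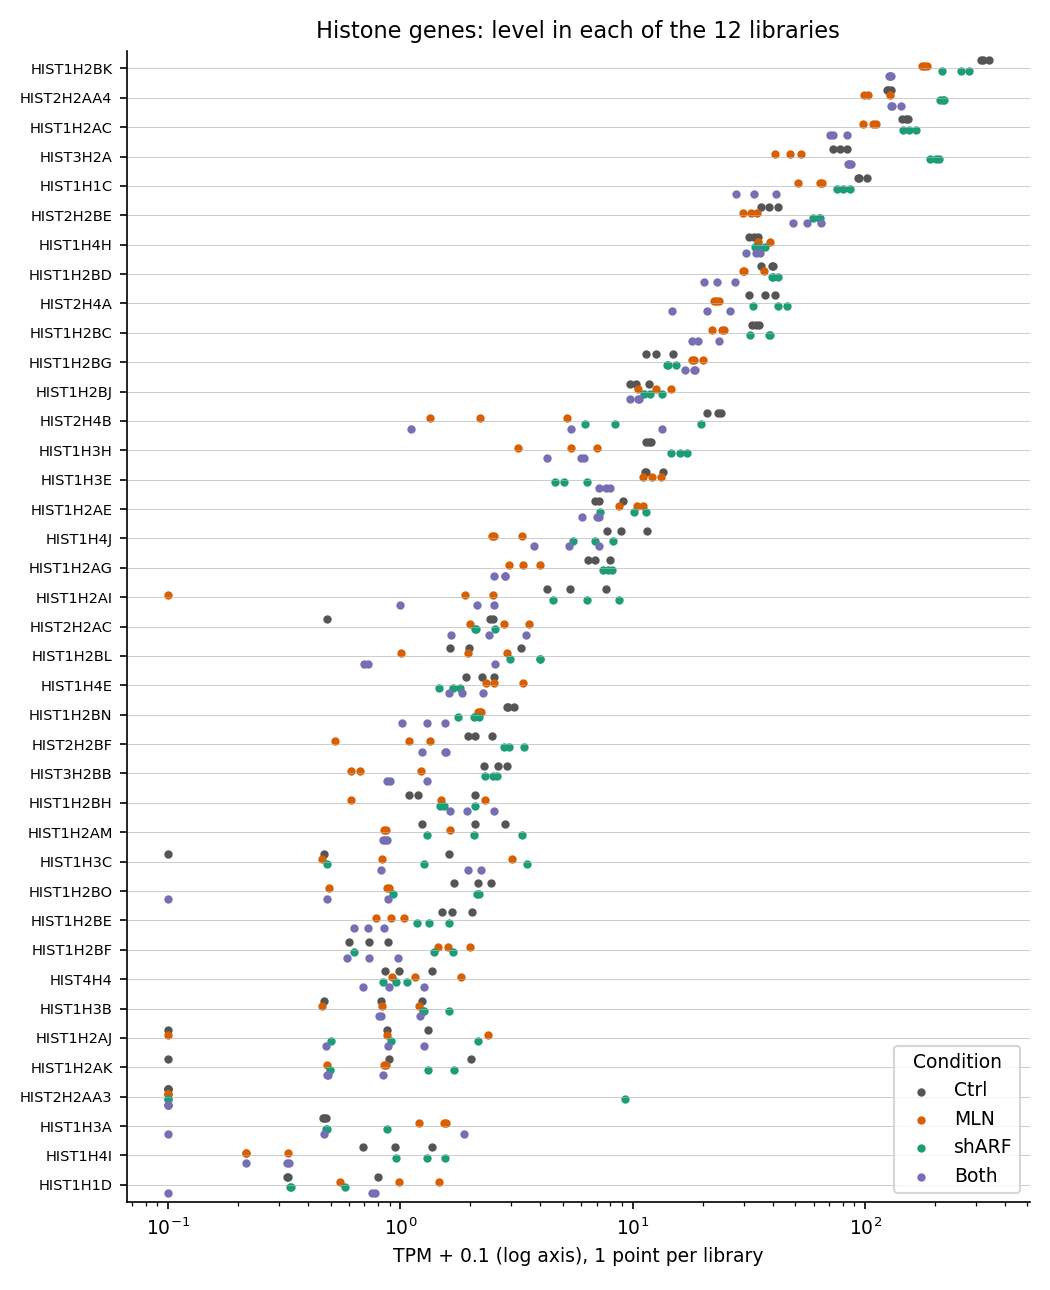
Level of each of the 39 histone genes in the 12 libraries, as TPM + 0.1 on a log axis, ordered by mean level; each point is a library and colours mark the 4 conditions. HIST1H2BK ran from 127 TPM in Both to 340.4 TPM in Ctrl, and HIST2H2AA3 was above 0 in a single shARF library.

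HIST1H3A, HIST1H3B and HIST1H3C have coding sequences of 411 bases, and in 7 of the 12 libraries the smallest of their values above 0 was under 0.4 TPM. Of their 22 values above 0 other than the smallest of a library, 18 lay within 0.1 of a whole multiple of that smallest value. Depth cannot be read from TPM, and fold changes of genes near 1 TPM may rest on few counted fragments.

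Genes annotated to continue past the stem-loop were the more highly listed. For 18 of the 70 histone rows, GENCODE or RefSeq on GRCh38 placed the end of the gene at least 100 bases past the loop. These had a median of 11.1 TPM over the 12 libraries, 17 of the 18 were among the 39 genes, and the other was listed at 0. The 52 rows that ended near the loop had a median of 0.324 TPM, 22 of them were among the 39 genes and 10 were listed at 0. HIST1H2BK (chr6:27146361-27146855, minus strand) ended 8073 bases past the loop in RefSeq and 5 bases past it in GENCODE. HIST3H2A (chr1:228434777-228457873, minus strand) and HIST1H2AC (chr6:26124145-26139116, plus strand) had GENCODE ends 22592 and 14432 bases past it. Genes with a high level and an end near the loop were HIST2H2AA4 (chr1:149851061-149851594), HIST1H1C (chr6:26055740-26056470) and HIST1H2BG (chr6:26216200-26216688). These levels are a description with no test. The annotation is not the release of the authors, and the transcript length by which they divided was not given in the sources used here. Of the 39 genes, 16 overlapped another annotated gene, so their reads can include those of a neighbour.

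**Figure D2:**
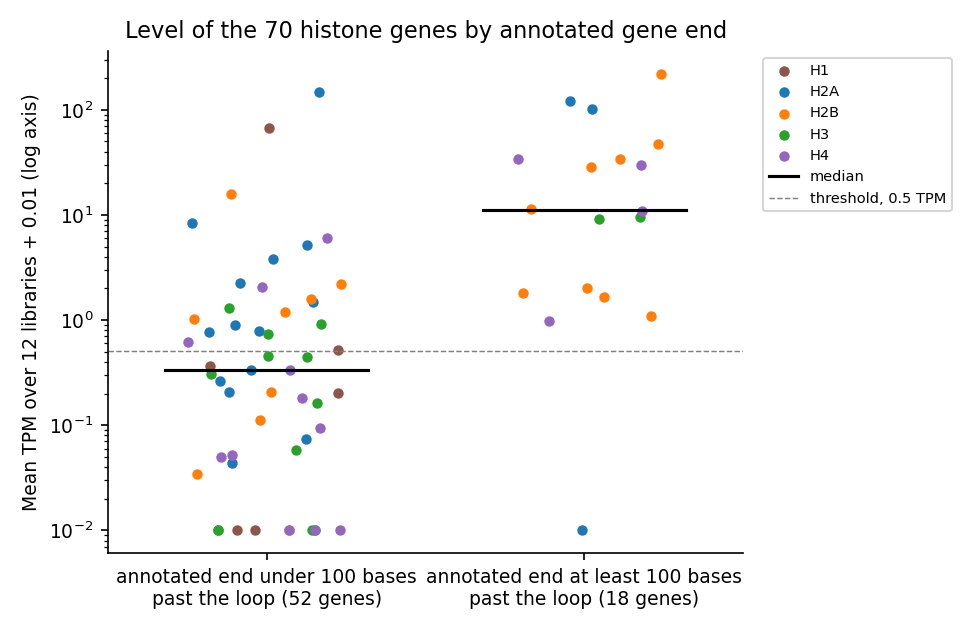
Mean TPM over 12 libraries plus 0.01, on a log axis, of the 70 histone genes whose annotated end lay under 100 bases (52 genes) or at least 100 bases (18 genes) past the stem-loop; points are genes coloured by histone type, black bars are medians and the dashed line is the 0.5 TPM threshold. The medians were 0.324 and 11.1 TPM, and 3 genes with a near end lay above 10 TPM.

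The summed level of the 39 genes was lower with MLN4924 in both cell backgrounds. It was 1089, 1080 and 1073 TPM in the Ctrl libraries and 741, 772 and 709.5 in MLN, which is 0.686 times the Ctrl mean. In PC3-shp14ARF cells it was 1259, 1200 and 1253 TPM with DMSO and 673, 713 and 695 with the drug, or 0.561 times. The shARF libraries thus lay above all others, and the drug-treated libraries of both backgrounds below all untreated ones. In bulk RNA, fewer cells of a kind, such as cells in S phase, and less RNA per cell cannot be told apart. The sums are descriptions with no test.

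The sum of the remaining genes was also lower with the drug. Without the 5 highest genes the sum was 306 ± 8.98 TPM in Ctrl (SD, n = 3) and 238 ± 3.998 in MLN, against 337 ± 5.396 in shARF and 237 ± 5.197 in Both. The H2A genes were summed at 379 ± 7.698 TPM in Ctrl and 603 ± 7.305 in shARF, a ratio of 1.59. Of the 11 H2A genes only 2, HIST3H2A and HIST2H2AA4, passed as higher in shARF vs Ctrl, so the ratio does not describe the type as a whole. HIST2H2AA4 and its copy HIST2H2AA3 were summed at 126 TPM in Ctrl and 218 in shARF. H1, H2B, H3 and H4 had shARF to Ctrl ratios between 0.836 and 0.967. Under the drug in PC3 cells, the ratios of MLN to Ctrl were 0.631 for H1, 0.746 for H2A, 0.6503 for H2B, 0.813 for H3 and 0.646 for H4. In PC3-shp14ARF cells H1 had the lowest ratio, with 80.8 ± 5.397 TPM in shARF and 34.5 ± 6.39 in Both. By location, the 2 HIST3 genes were summed at 80.5 ± 5.45 TPM in Ctrl and 202 ± 8.704 in shARF. The HIST2 genes were at 227 ± 7.77 and 337 ± 4.08 TPM, and the 29 HIST1 genes at 772 ± 3.24 and 698 ± 20.2 TPM. The HIST3 sum was nearly all HIST3H2A, and HIST3H2BB did not pass in shARF vs Ctrl.

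**Figure D3:**
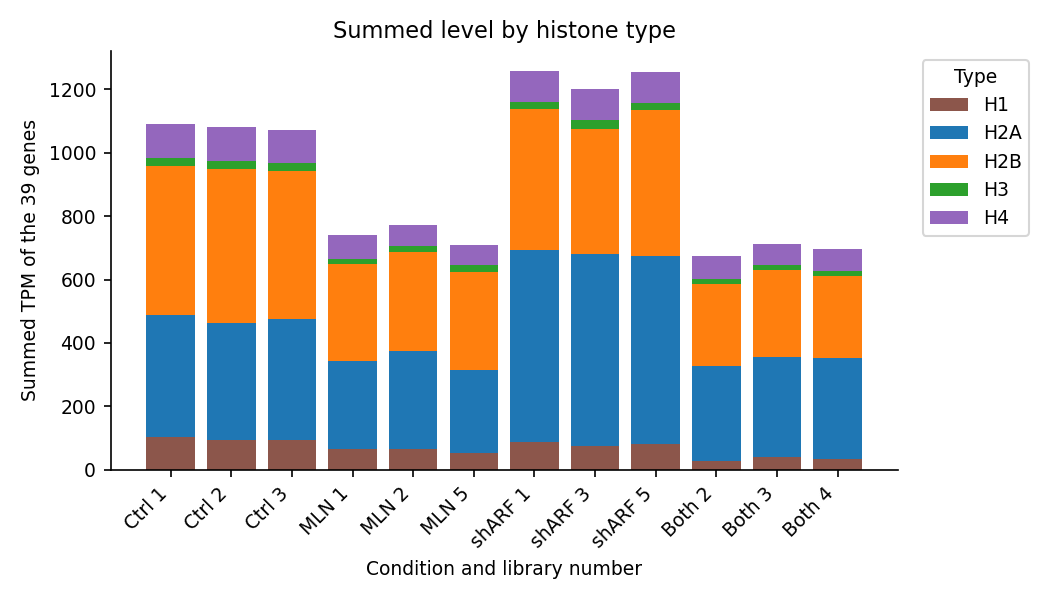
Summed TPM of the 39 histone genes in each of the 12 libraries, with colours for the histone types; the number beside the condition is that of the library in the deposited table. The sums lay between 1073 and 1089 TPM in Ctrl, 709.5 and 772 in MLN, 1200 and 1259 in shARF, and 673 and 713 in Both.

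MLN4924 lowered 17 of the 39 genes in PC3 cells and raised 3 (limma, adjusted p below 0.05 over 19932 genes tested). That is 43.6% lower and 7.69% higher, where 29.4% of all genes tested were lower and 32.2% higher. The median log2 difference was −0.27 for the histone genes and 0.052 for all genes tested. Of the 34 genes whose mean reached 0.5 TPM in every condition, 15 were lower and 2 higher. HIST1H2BK was at 314, 340.4 and 321 TPM in Ctrl and 175, 185 and 179.7 in MLN (log2 difference −0.85, SE 0.0504, adjusted p = 3.99e-05). HIST1H2AC fell from 145, 150.1 and 153 TPM to 111, 108 and 97.6 (log2 difference −0.50, SE 0.0601, adjusted p = 0.000637). HIST1H1C, a linker histone gene, fell from 102, 94.1 and 92.8 TPM to 65.05, 63.9 and 51.2 (log2 difference −0.69, SE 0.103, adjusted p = 0.00166). In each of these the MLN libraries lay below every Ctrl library. HIST1H4J, an H4 gene, fell from 8.797, 7.62 and 11.4 TPM to 2.37, 3.22 and 2.43 (log2 difference −1.75, SE 0.192, adjusted p = 0.000446). HIST3H2BB fell from 2.78, 2.53 and 2.18 TPM to 1.12, 0.572 and 0.5103 (log2 difference −1.70, SE 0.297, adjusted p = 0.00323).

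Not all genes of the family followed. HIST1H2BG, another H2B gene, rose from 11.3, 12.5 and 14.8 TPM in Ctrl to 18.3, 19.9 and 17.9 in MLN (log2 difference 0.54, SE 0.109, adjusted p = 0.00559). HIST1H2BF rose from 0.784, 0.5003 and 0.635 TPM to 1.36, 1.51 and 1.89 (log2 difference 1.19, SE 0.221, adjusted p = 0.00412). The third gene that rose was HIST1H3A, from 0.3802, 0.364 and 0.3696 TPM to 1.44, 1.46 and 1.101 (log2 difference 1.59, adjusted p = 0.000555), a gene under 0.5 TPM in the Ctrl mean. Its Ctrl values were each the smallest nonzero value of HIST1H3A, HIST1H3B and HIST1H3C in their library. They may rest on few counted fragments, an error that the p-value does not measure. HIST1H3A reached the threshold through other libraries than those of Ctrl, so its difference is tied to its selection. HIST1H4H, the highest H4 gene, was at 34.5, 31.6 and 33.2 TPM in Ctrl and 38.9, 34.3 and 34.4 in MLN and did not pass (log2 difference 0.11, SE 0.06796, adjusted p = 0.197). By type, 8 of 14 H2B genes, 4 of 7 H4, 3 of 11 H2A, 1 of 5 H3 and 1 of 2 H1 genes were lower. Of the 17 genes with an annotated end far past the loop 12 were lower and 0 higher, and of the 22 with a near end 5 were lower and 3 higher, beside the 29.4% and 32.2% of all genes tested. The difference between these groups was not tested, and they also differ in level, with medians of 11.3 and 1.52 TPM. Of the 13 genes with a mean of 10 TPM or more, whatever their end, 8 (61.5%) were lower. At the cutoff of the study, a log2 difference below −2 in addition, HIST2H4B alone passed among the 39 genes, where 3.29% of all genes tested did.

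In PC3-shp14ARF cells the drug lowered 18 of the 39 genes and raised 2 (46.2% and 5.13%), where 32.8% of all genes tested were lower and 28.3% higher. The median log2 difference was −0.80 for the histone genes and −0.038 for all genes tested. This comparison shares no library with that in PC3 cells. HIST1H2BK was at 258, 215 and 279 TPM in shARF and 127, 129 and 128 in Both (log2 difference −0.96, SE 0.0973, adjusted p = 0.000328). HIST3H2A fell from 207, 189.9 and 201 TPM to 84.99, 86.7 and 84.2 (log2 difference −1.22, SE 0.0426, adjusted p = 6.65e-06). HIST1H1C fell from 86.1, 75.3 and 80.1 TPM to 27.8, 41.2 and 33.2 (log2 difference −1.26, SE 0.146, adjusted p = 0.000596). The Both libraries lay below every shARF library in each of them. HIST1H3H, an H3 gene, fell from 15.9, 16.96 and 14.5 TPM to 6.05, 4.17 and 5.904 (log2 difference −1.55, SE 0.158, adjusted p = 0.000336), and in PC3 cells from 11.6, 11.2 and 11.9 TPM to 3.102, 5.35 and 6.95 (log2 difference −1.23, SE 0.281, adjusted p = 0.00971). HIST1H2AI fell from 6.26, 8.65 and 4.42 TPM to 0.893, 2.42 and 2.03 (log2 difference −1.85, SE 0.419, adjusted p = 0.00987), a call lost with 12 libraries in 1 fit (adjusted p = 0.101).

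Of the 39 genes, 13 were lower with the drug in both backgrounds. Another 4 were lower in MLN vs Ctrl only and 5 in Both vs shARF only. Of all genes tested, 29.4% were lower in MLN vs Ctrl and 32.8% in Both vs shARF, but the share lower in both was not counted. The 13 genes are thus a description and cannot show whether the overlap is particular to histone genes. The difference between the responses is given as the interaction. HIST1H2BG was the only gene of the 39 called higher in both backgrounds, with 14.1, 15.3 and 13.97 TPM in shARF and 18.3, 16.6 and 18.5 in Both (log2 difference 0.30, SE 0.06504, adjusted p = 0.00849). HIST1H3E was the other gene higher in Both than in shARF (0.52, adjusted p = 0.0163), a call lost without Both replicate 2, Both replicate 3 or shARF replicate 5, where adjusted p reached 0.0578. HIST1H2BL, at 3.87, 2.87 and 3.903 TPM in shARF and 2.45, 0.622 and 0.599 in Both (log2 difference −1.73, SE 0.534, adjusted p = 0.0321), lost its call under 6 of 13 alternatives, among them without any one of the shARF libraries or Both replicate 3 or 4 (adjusted p up to 0.126 over the alternatives). At a log2 difference below −2, HIST1H4I alone passed (−2.12, from 1.46, 1.201 and 0.859 TPM to 0.231, 0.117 and 0.226), where 3.61% of all genes tested did. HIST1H4I reached the threshold through the untreated libraries, with means of 0.901 TPM in Ctrl and 1.17 in shARF, so its difference is tied to its selection. Of the 34 genes whose mean reached the threshold in every condition, 17 were lower, 2 higher and 0 past −2.

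**Figure D4:**
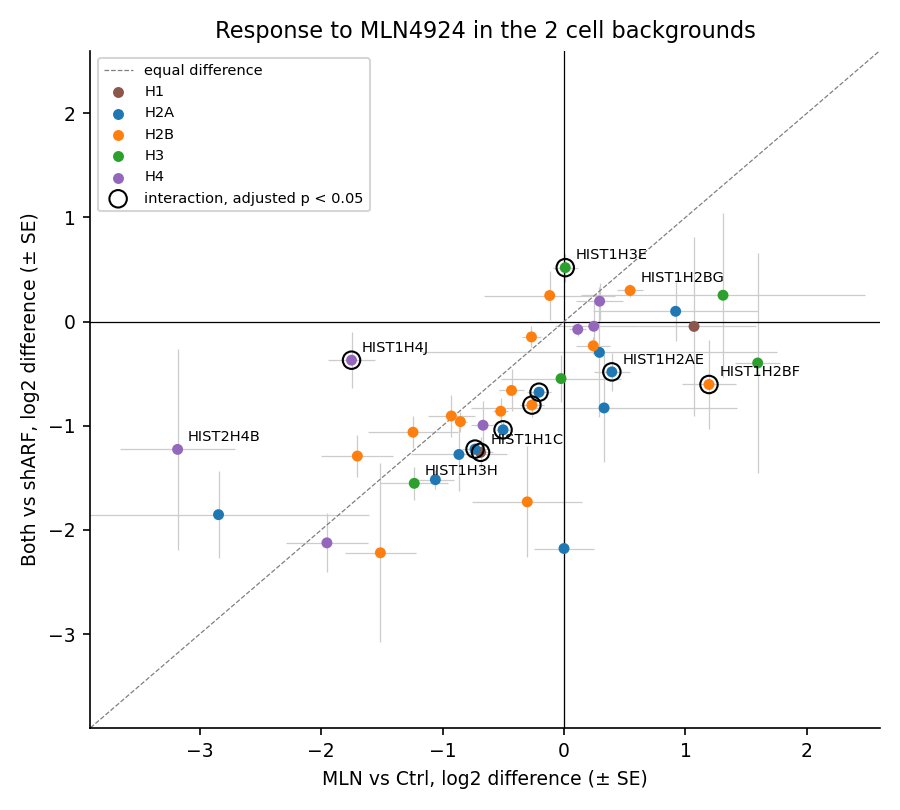
Log2 difference of TPM + 0.1 under MLN4924 in PC3 cells (horizontal) and in PC3-shp14ARF cells (vertical) for the 39 histone genes, with standard errors as bars, colours for histone types, a dashed line of equal difference and rings around genes whose interaction passed. HIST1H4J (−1.75 and −0.37) lay above the line and HIST1H2BF (1.19 and −0.60) below it.

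In shARF vs Ctrl 5 of the 39 genes (12.8%) were higher and 4 (10.3%) lower, where 21.0% of all genes tested were higher and 20.4% lower, so the counts lay below the background. The genes that rose stand outside the HIST1 group except HIST1H3H. HIST3H2A, at 83.5, 72.9 and 77.6 TPM in Ctrl, rose to 207, 189.9 and 201 in shARF (log2 difference 1.36, SE 0.0615, adjusted p = 0.000142). HIST2H2AA4 rose from 129, 125 and 124 TPM to 210.4, 218 and 216 (log2 difference 0.77, SE 0.0274, adjusted p = 7.46e-05). HIST2H2BE rose from 41.9, 38.3 and 35.5 TPM to 63.2, 59.6 and 63.8 (log2 difference 0.69, SE 0.0694, adjusted p = 0.00139). In these genes of H2A and H2B each shARF library was above each Ctrl library. HIST1H3E, whose stem-loop is the one with the changed letter, fell from 11.2, 11.3 and 13.4 TPM to 4.52, 6.26 and 4.98 (log2 difference −1.18, SE 0.146, adjusted p = 0.00266). HIST1H2BN fell from 2.995, 2.81 and 2.77 TPM to 1.98, 1.67 and 2.09 (log2 difference −0.56, SE 0.118, adjusted p = 0.0157). HIST1H2BK (−0.38, adjusted p = 0.0361) and HIST1H1C (−0.26, adjusted p = 0.026) were also lower, but the call of HIST1H2BK was lost without any one of the Ctrl libraries or shARF replicate 1 (adjusted p up to 0.105), and that of HIST1H1C without any one of the Ctrl libraries or shARF replicate 3 or 5 (adjusted p up to 0.0779). The call of HIST1H3H was lost with 12 libraries in 1 fit (adjusted p = 0.152).

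Under the drug, 3 of the 39 genes were higher and 8 lower in Both than in MLN (7.69% and 20.5%). Of all genes tested, 11.8% were higher in Both vs MLN and 20.6% lower. HIST3H2A was at 47.3, 52.9 and 40.9 TPM in MLN and 84.99, 86.7 and 84.2 in Both (log2 difference 0.86, SE 0.0957, adjusted p = 0.00214). HIST2H2BE was at 29.8, 32.1 and 34.02 TPM in MLN and 56.03, 64.4 and 48.99 in Both (log2 difference 0.81, SE 0.1103, adjusted p = 0.00397). Every Both library was above every MLN library in these genes, as every shARF library was above every Ctrl library. HIST1H2BK was lower, at 175, 185 and 179.7 TPM in MLN and 127, 129 and 128 in Both (log2 difference −0.49, SE 0.0433, adjusted p = 0.00112), and so was HIST1H2AC, at 111, 108 and 97.6 and 70.5, 83.2 and 72.9 TPM (log2 difference −0.48, SE 0.08398, adjusted p = 0.00872). The calls of HIST1H4J (0.93, adjusted p = 0.0403), HIST1H1C (−0.83, 0.0141), HIST1H2BF (−1.16, 0.0169), HIST1H2BN (−0.79, 0.0243), HIST1H2AE (−0.58, 0.0166) and HIST1H2BD (−0.46, 0.049) were each lost without MLN replicate 2, where 3 genes were lower instead of 8. Each of these 6 calls was also lost without some other single library (adjusted p up to 0.133). Without MLN replicate 5 the genes lower were 5. HIST1H3E was lower at 7.55, 7.88 and 7.09 TPM in Both against 13.2, 12.01 and 10.98 in MLN (log2 difference −0.67, SE 0.0911, adjusted p = 0.0039).

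The response to the drug differed between the backgrounds in 9 of the 39 genes (interaction over the 12 libraries), 2 of them positive and 7 negative (5.13% and 17.9%), where 11.2% of all genes tested were positive and 17.1% negative. A negative value means a lower log2 difference in PC3-shp14ARF cells than in PC3 cells. HIST1H2AC was at 155, 166 and 145 TPM in shARF and 70.5, 83.2 and 72.9 in Both, against 149 and 105 TPM in the means of Ctrl and MLN (interaction −0.54, adjusted p = 0.00264). HIST2H2AA4 was at 210.4, 218 and 216 TPM in shARF and 129, 131 and 143 in Both, while its Ctrl libraries (129, 125 and 124 TPM) and MLN libraries (99.2, 128 and 102) overlapped (interaction −0.47, adjusted p = 0.0108). HIST3H2A, which was higher in shARF than in Ctrl, also fell further with the drug in PC3-shp14ARF cells (interaction −0.49, adjusted p = 0.00836). These 3 genes encode H2A, and 4 of the 11 H2A genes had a negative interaction. HIST1H2BF rose with the drug in PC3 cells and was at 1.58, 1.299 and 0.531 TPM in shARF and 0.876, 0.635 and 0.488 in Both (interaction −1.80, adjusted p = 0.016). HIST1H4J fell with the drug in PC3 cells and was at 6.75, 5.42 and 8.08 TPM in shARF and 5.22, 3.66 and 7.05 in Both (interaction 1.38, adjusted p = 0.00839). Without the filter on low values the calls of HIST1H2BF and HIST1H4J were lost (adjusted p = 0.0688 and 0.0506). With the replicate number as a block over the 12 libraries both were also lost (limma, adjusted p = 0.112 and 0.0948). So was the call of HIST3H2A (adjusted p = 0.0585). HIST1H1C (−0.57) and HIST1H3E (0.51) lost their calls under 12 of 19 alternatives each, with adjusted p up to 0.146 and 0.241.

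Some genes cannot be told from their copies. HIST2H4A (chr1:149832657-149839767) and HIST2H4B (chr1:149854045-149861159) have the same coding sequence, and so have HIST2H2AA4 (chr1:149851061-149851594) and HIST2H2AA3 (chr1:149842218-149842750). HIST2H4B was at 20.8, 23.2 and 23.8 TPM in Ctrl and 5.13, 1.25 and 2.11 in MLN, against 6.12, 8.297 and 19.5 in shARF and 1.01, 13.2 and 5.30 in Both (log2 difference −3.18, SE 0.474, adjusted p = 0.00161 in MLN vs Ctrl). Its shARF and Both libraries differed among themselves by more than the Ctrl libraries did. HIST2H4A was at 37.1, 40.7 and 31.4 TPM in Ctrl and 22.8, 23.3 and 22.2 in MLN, against 46.1, 42.0 and 32.9 in shARF and 26.1, 14.7 and 20.9 in Both. In shARF and Both the spread was smaller in their sum, which was 57.96, 63.9 and 55.2 TPM in Ctrl and 27.9, 24.6 and 24.3 in MLN, against 52.2, 50.3 and 52.4 in shARF and 27.1, 27.9 and 26.2 in Both. The summed level of this H4 pair was thus below all untreated libraries in each drug-treated one, and the value of HIST2H4B alone is uncertain. HIST2H2AA3 was listed at 0 in 11 libraries and at 9.18 TPM in shARF library 1, where HIST2H2AA4 was at 210.4 TPM. HIST1H4J shares its coding sequence with HIST1H4K, which is below the threshold. Over pairs of the 39 genes, the coding sequences of H2B genes were between 85.5% and 94.4% identical (median 90.7%), and the median was 86.4% in H2A, 84.9% in H3 and 83.5% in H4.

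Many of the genes stand head to head, an H2A gene and an H2B gene sharing the stretch between their starts. Among the 39 genes were 8 such pairs. Shown are the stretches of 3 pairs between the gene starts annotated in GENCODE, plus strand of GRCh38. In capitals are the CCAAT box, the TATA box (letters TATAAA), the octamer (letters ATTTGCAT) and their reverse complements. Letters past a GENCODE start are not shown. The stretch of HIST1H2BC and HIST1H2AC has no TATA box in capitals, though the RefSeq promoter windows of both genes, counted below, held one.
HIST1H2BC and HIST1H2AC, chr6:26123927-26124144: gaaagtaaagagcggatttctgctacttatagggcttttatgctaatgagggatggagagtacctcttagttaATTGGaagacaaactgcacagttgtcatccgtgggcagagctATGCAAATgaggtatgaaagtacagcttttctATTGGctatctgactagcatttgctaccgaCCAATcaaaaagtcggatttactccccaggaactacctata
HIST3H2A and HIST3H2BB, chr1:228457874-228458102: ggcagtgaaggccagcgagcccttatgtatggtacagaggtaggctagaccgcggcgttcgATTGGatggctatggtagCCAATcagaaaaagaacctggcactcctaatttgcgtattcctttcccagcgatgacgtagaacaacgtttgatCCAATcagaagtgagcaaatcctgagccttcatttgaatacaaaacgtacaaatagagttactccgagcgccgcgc
HIST2H2BE and HIST2H2AC, chr1:149886683-149886917: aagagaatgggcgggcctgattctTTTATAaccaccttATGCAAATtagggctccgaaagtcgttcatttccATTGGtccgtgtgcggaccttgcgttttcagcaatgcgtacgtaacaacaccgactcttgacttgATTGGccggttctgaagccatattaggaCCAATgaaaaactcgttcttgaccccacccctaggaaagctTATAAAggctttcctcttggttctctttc
They are shown as a HIST1 pair that passed in the same direction under the drug, the HIST3 pair and a HIST2 pair. In the HIST3 pair HIST3H2A alone passed with the shRNA. The HIST2 and HIST3 pairs were both of unequal level (TPM). HIST2H2BE was at 21.1 times the level of HIST2H2AC, and HIST3H2A at 62.8 times that of HIST3H2BB. HIST1H2BC and HIST1H2AC had log2 differences of −0.52 and −0.50 in MLN vs Ctrl and −0.86 and −1.04 in Both vs shARF, all past the test. HIST3H2A and HIST3H2BB were both lower with the drug in PC3 cells (−0.73 and −1.70) and in PC3-shp14ARF cells (−1.22 and −1.29). With the shRNA HIST3H2A rose (1.36) while HIST3H2BB was at 2.78, 2.53 and 2.18 TPM in Ctrl and 2.397, 2.498 and 2.22 in shARF (−0.068, adjusted p = 0.71). HIST2H2BE rose with the shRNA (0.69) and HIST2H2AC was at 2.404, 0.384 and 2.34 TPM in Ctrl and 2.02, 1.99 and 2.44 in shARF (0.64, adjusted p = 0.512). Of the 8 pairs, 2 passed in the same direction in MLN vs Ctrl, 3 in Both vs shARF and 0 in shARF vs Ctrl, where few single genes passed.

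The same letters were counted in the promoters of RefSeq on GRCh38.p14, from 250 bases before to 50 after each start, on both strands, and all 39 genes had an entry. TATAAA was present in 64.1% of the 39 promoters and 13.99% of all 27305, CCAAT in 84.6% and 39.7%, and the octamer ATTTGCAT, which POU2F1 binds, in 41.0% and 2.19%. The octamer stood in 10 of 14 H2B and 6 of 11 H2A promoters and in none of H1, H3 and H4. In a head-to-head pair the windows of both genes overlap, so the same letters can count for both. The promoters of HIST1H2BC and HIST1H2AC, for example, share the 1 octamer between their starts. The H2A and H2B counts are thus not of separate octamers. CCAAT stood in every promoter of the H1, H2A, H2B and H3 genes and in 1 of 7 of H4. These are matches of letters within a window.

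SLBP, which binds the stem-loop, was at 109, 109.6 and 109 TPM in Ctrl and 230.0, 228 and 250.3 in MLN, against 191, 185 and 196 in shARF and 261, 284 and 245 in Both. It rose with the drug in both backgrounds (1.11 and 0.46) and with the shRNA (0.80), and every treated library was above every Ctrl library. Of the 17 genes of histone mRNA processing and decay, 7 were higher and 6 lower in MLN vs Ctrl (median 0.046). In Both vs shARF 7 were higher and 9 lower (median −0.29). Over all genes tested, 32.2% were higher and 29.4% lower in MLN vs Ctrl, and 28.3% and 32.8% in Both vs shARF. NCBP1, a subunit of the cap-binding complex, fell from 46.7, 46.99 and 51.8 TPM to 26.4, 25.7 and 27.2 in PC3 cells (log2 difference −0.87, SE 0.0567, adjusted p = 5.48e-05). ZCCHC6 (TUT7), a uridylyl transferase that acts in histone mRNA decay, went from 20.5 ± 0.921 TPM (SD, n = 3) to 13.3 ± 0.712 in PC3 cells and from 11.03 ± 0.442 to 16.97 ± 1.82 in PC3-shp14ARF cells (interaction 1.24, adjusted p = 1.43e-05). LSM10, a subunit of the U7 snRNP that cuts the pre-mRNA, was at 75.1 ± 1.36, 95.7 ± 5.88, 88.6 ± 4.92 and 68.2 ± 6.08 TPM in Ctrl, MLN, shARF and Both (interaction −0.73, adjusted p = 0.000267).

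Of the 10 genes of histone gene transcription and S phase, 8 were higher and 0 lower in MLN vs Ctrl, with a median log2 difference of 1.19, and 8 higher and 2 lower in Both vs shARF, with a median of 0.52. NPAT was at 12.5, 11.4 and 12.2 TPM in Ctrl and 15.6, 14.97 and 17.01 in MLN (log2 difference 0.39, SE 0.07298, adjusted p = 0.00421), and at 13.04, 12.4 and 12.4 in shARF and 16.3, 17.3 and 16.1 in Both (0.39, adjusted p = 0.00108). CCNE2, a cyclin E, rose from 5.61, 5.103 and 5.39 TPM to 48.02, 42.5 and 52.3 in PC3 cells (log2 difference 3.12, SE 0.0899, adjusted p = 4.89e-06). E2F1, a transcription factor of S-phase entry, rose from 34.4, 26.8 and 32.5 TPM to 137, 147 and 162 (log2 difference 2.25, SE 0.111, adjusted p = 2.14e-05). PCNA, the sliding clamp of DNA replication, had means of 212, 674, 449 and 651 TPM in Ctrl, MLN, shARF and Both (interaction −1.13, adjusted p = 5.43e-06). These S-phase genes were thus higher in the MLN libraries in which HIST1H2BK, HIST1H2AC and HIST1H1C were lower. In the interaction 6 of the 10 genes were negative and 0 positive, with E2F1 at −1.21 (adjusted p = 0.000118). Of all genes tested, 17.1% were negative and 11.2% positive.

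Most replacement histones are made outside S phase too, from mRNAs with a poly(A) tail, though not every gene of the list needs to be so. Of the 12 genes listed 3 were higher and 6 lower in MLN vs Ctrl (median −0.16), 3 higher and 8 lower in Both vs shARF (median −0.51), and 8 higher and 0 lower in shARF vs Ctrl (median 0.31). H2AFZ, which encodes H2A.Z, rose from 314, 377 and 377 TPM to 980.3, 796 and 870.1 with the drug in PC3 cells (log2 difference 1.31, SE 0.111, adjusted p = 0.000155). H2AFY2, a macroH2A gene, fell from 108, 103 and 110.3 TPM to 48.7, 56.9 and 54.5 (log2 difference −1.01, SE 0.0686, adjusted p = 6.56e-05). The linker histone genes H1F0 and H1FX had negative interactions (−0.73 and −0.93, adjusted p = 0.000449 and 0.000128). H1F0 was at 822, 848 and 749.6 TPM in Ctrl and 582, 598 and 598 in MLN, against 845, 895 and 985 in shARF and 403, 431 and 375 in Both.

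Of the 23 histone chaperone genes 13 were higher and 8 lower in MLN vs Ctrl (median 0.39), 8 higher and 10 lower in Both vs shARF (median −0.062), and 17 higher and 1 lower in shARF vs Ctrl (median 0.39). ASF1B, a chaperone of H3 and H4, rose from 87.4, 84.2 and 90.0 TPM to 288, 329.9 and 369.6 in PC3 cells (log2 difference 1.91, SE 0.0956, adjusted p = 2.26e-05). ATRX, a chromatin remodeller that deposits H3.3 with DAXX, fell from 19.7, 16.9 and 16.95 TPM to 4.85, 4.198 and 4.66 (log2 difference −1.94, SE 0.0956, adjusted p = 2.14e-05). TONSL, a reader of new histone H4 at replication forks, was at 6.897 ± 0.945, 14.1 ± 0.523, 15.4 ± 1.67 and 14.6 ± 1.63 TPM in Ctrl, MLN, shARF and Both (interaction −1.10, adjusted p = 0.000403). All medians of these lists stand beside medians over all genes tested of 0.052 in MLN vs Ctrl, −0.038 in Both vs shARF and 0 in shARF vs Ctrl. The counts of these lists stand beside 32.2% of all genes tested higher and 29.4% lower in MLN vs Ctrl. These shares were 28.3% and 32.8% in Both vs shARF, and 21.0% and 20.4% in shARF vs Ctrl.

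**Figure D5:**
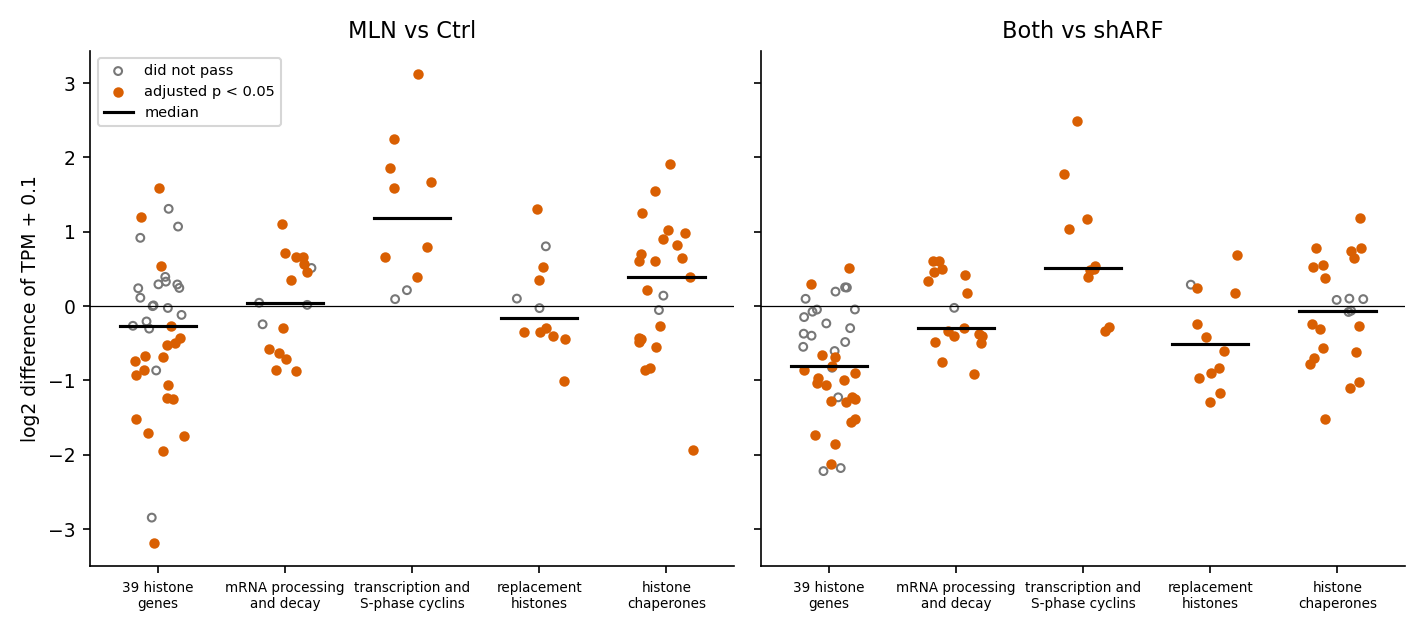
Log2 difference of TPM + 0.1 in MLN vs Ctrl (left) and Both vs shARF (right) for the 39 histone genes and the lists of 17 processing and decay, 10 transcription and S-phase, 12 replacement histone and 23 chaperone genes; filled points had an adjusted p below 0.05 and bars are medians. The median was −0.27 for the histone genes and 1.19 for the S-phase list in MLN vs Ctrl.

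Below the threshold, 13 histone rows were still tested and 18 were not, 7 of which were above 0 in some library. In MLN vs Ctrl HIST1H1E was lower (from 0.622, 0.595 and 0.806 TPM to 0 in the 3 MLN libraries) and HIST1H2AB and HIST1H2AL were higher, at up to 1.15 and 0.767 TPM. That is 7.69% lower and 15.4% higher, beside 29.4% and 32.2% of all genes tested. HIST1H2AB was at 0 in every Ctrl library. Such values may rest on few counted fragments, and the filter on the mean included the condition in which a row was high. HIST1H1E was higher in Both than in MLN (limma, log2 difference 1.82, adjusted p = 0.00614).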

How the data were processed

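RNA was sequenced from the 12 libraries of the 4 conditions. Mapping to hg38 and quantification were done by the authors in CLC Genomics Workbench, after adapter trimming, and the values they deposited are TPM for 43622 rows, each library summing to 1000000. TPM holds no depth, so the precision was read from the spread between libraries. The deposited table uses older histone symbols, and 70 were matched to RefSeq and GENCODE genes. From TPM, log2(TPM + 0.1) was compared by lmFit and eBayes (trend) of limma 3.58.1 under R 4.3.3 over the 19932 genes that averaged 0.1 TPM or more, with Benjamini-Hochberg adjustment over all of them. Pairwise fits used the 6 libraries of their conditions and the interaction all 12. A fold change on this scale understates that of low genes. The fits were tested on simulated data. Libraries are named by the number in the deposited table.

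Genes named were CDKN2A, the 8 highest members, the 3 with the largest differences per comparison and direction (mean 1 TPM or more, adjusted p below 0.05 and, in pairwise comparisons, no overlap of libraries), near-identical copies, the members beside the threshold, and from each list the 2 with the largest differences in MLN vs Ctrl and the interaction, with SLBP and NPAT. The head-to-head pairs shown, HIST1H3A, HIST1H3B, HIST1H3C, HIST1H2AG, HIST1H2AK and the tested genes below the threshold were singled out after their values were seen. The members and lists were chosen with earlier results of these data known. Alternatives were pseudocounts of 1 and 0.01, a minimum mean of 1 TPM or none, median-of-ratios scaling, eBayes without trend, 1 fit to 12 libraries, a replicate block, each library left out, members without near-identical copies (at least 98% identity) and member thresholds of 1 and 0.1 TPM. Some markers of the cell line are not reported here.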

Additional observations from a re-analysis of the deposited data

Results flagged for a closer look

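In 9 of the 39 histone genes the response to MLN4924 differed between PC3-shp14ARF and PC3 cells by the test of the difference itself (limma, interaction, adjusted p below 0.05). That is 5.13% positive and 17.9% negative, beside 11.2% and 17.1% of all genes tested, so the share is no higher than the background in the positive direction and near it in the negative. The values were −0.47 for HIST2H2AA4, −0.54 for HIST1H2AC, −0.49 for HIST3H2A, −0.57 for HIST1H1C, −0.54 for HIST1H2BD, −0.88 for HIST1H2AE and −1.80 for HIST1H2BF, which responded lower in PC3-shp14ARF cells, and 0.51 for HIST1H3E and 1.38 for HIST1H4J, which responded higher. HIST1H2BD was at 40.2, 35.5 and 39.8 TPM in Ctrl and 36.6, 30.04 and 29.8 in MLN, against 41.9, 39.8 and 40.1 in shARF and 20.1, 22.8 and 27.3 in Both, and its difference passed the pairwise test in PC3-shp14ARF cells (−0.80) and not in PC3 cells (−0.26, adjusted p = 0.0583). HIST1H2AE was at 7.11, 11.3 and 9.98 TPM in shARF and 7.06, 5.97 and 6.89 in Both.

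Among the other named genes the interaction was −0.65 for SLBP, 1.24 for ZCCHC6, −0.73 for LSM10, −0.63 for CCNE2, −1.21 for E2F1, −1.13 for PCNA, −0.62 for H2AFZ, −0.93 for H1FX, −0.73 for H1F0, 0.42 for ATRX, −1.17 for ASF1B and −1.10 for TONSL. For SLBP, CCNE2, E2F1, PCNA, H2AFZ and ASF1B the rise with the drug was smaller in PC3-shp14ARF cells, whose shARF libraries lay above the Ctrl libraries before the drug.

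Without the filter on low values the interactions of HIST1H4J, HIST1H2BF and HIST1H2AE were lost (adjusted p = 0.0506, 0.0688 and 0.0744). With the replicate number as a block these 3 were lost as well (limma, adjusted p = 0.0948, 0.112 and 0.0573). The interaction of HIST3H2A was lost with the block too (adjusted p = 0.0585). The interaction of HIST1H2BD was lost under median-of-ratios scaling, without the filter and without Ctrl replicate 2 (adjusted p up to 0.0889), and that of ATRX under 12 of 19 alternatives, among them without any one of the Ctrl or shARF libraries (adjusted p up to 0.113).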

How the results depend on the processing

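Of the 195 log2 differences of named genes, 119 passed, and 62 of these kept their direction and side of the threshold under every alternative; none reversed. With single libraries left out, 15 to 18 of the 39 genes were lower and 3 to 4 higher in MLN vs Ctrl, 15 to 18 lower and 1 to 2 higher in Both vs shARF, 2 to 4 lower and 4 to 6 higher in shARF vs Ctrl, 3 to 7 lower and 2 to 3 higher in Both vs MLN, and 5 to 9 negative and 1 to 2 positive in the interaction. Higher in Both vs shARF was 1 without Both replicate 2, Both replicate 3 or shARF replicate 5, and lower in shARF vs Ctrl was 2 without any one of the Ctrl libraries. The sums with a library left out lay at 1076 to 1085 TPM in Ctrl, 725.1 to 756.6 in MLN, 1227 to 1256 in shARF and 684.0 to 704.4 in Both.

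Without a filter on low values, 2 genes were lower in shARF vs Ctrl, 1 higher in Both vs shARF, 3 lower in Both vs MLN, and 3 negative and 0 positive in the interaction, with more genes entering the adjustment. A threshold of 0.1 TPM gave 5 histone genes higher in MLN vs Ctrl, 1 fit to 12 libraries gave 3 higher in shARF vs Ctrl, and eBayes without trend gave 1 positive interaction. Median-of-ratios scaling gave sums of 1058 TPM in Ctrl, 1205 in shARF and 722.4 in Both, and leaving out near-identical copies gave 895.7, 605.4, 967.9 and 532.4 TPM in Ctrl, MLN, shARF and Both. The cause of the other shifts was not tested.

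With the replicate number as a block, 6 genes were lower in MLN vs Ctrl and 0 lower and 0 higher in shARF vs Ctrl. In the interaction 3 were negative and 0 positive. The pairwise block fits estimate terms for the numbers from 6 libraries, which leaves little to measure the spread by. Even CDKN2A, at a log2 difference of −1.65, did not pass in shARF vs Ctrl (limma, adjusted p = 0.0607). These pairwise counts thus cannot tell an absent difference from a lack of precision. The replicate numbers gave no sign of pairing. Same-numbered libraries correlated at r between −0.046 and 0.022 over 10 pairs in their deviations from the condition means. The other pairwise comparisons share under 2 numbers and have no block value. TPM keeps no depth, so low genes have no counting error here.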
